A study of Mus musculus with 8 samples.

Results

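The genes described here encode the main enzyme families that attach sulfate, glucuronic acid or glutathione to small molecules. These are sulfotransferases (SULT), UDP-glucuronosyltransferases (UGT), non-microsomal glutathione transferases (GST) and microsomal glutathione transferases (MGST). The families were chosen with earlier results of these data known, and within them the genes were taken by symbol. Included was every gene beginning with Sult and a digit, Ugt1, Ugt2, Ugt3, Gsta, Gstm, Gstp, Gstt, Gsto, Gstk, Gstz or Mgst. It had to be measured by a probe set with exactly 1 gene symbol. This gave 52 of the 22180 genes tested, of which 21 were SULT, 10 UGT, 18 GST and 3 MGST genes. The 2 probe sets of the UGT1 locus, those of Gsta1 and Gsta2, and those of Gstm5, Gstz1, Ugt2a1 and Ugt2a2 each carried several symbols, so these genes were not analysed here. One further shared probe set, for Gstp1 and Gstp2, was left out, while both genes also had a probe set of their own.

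RNA came from cells sorted from mouse colon 2 days after transplantation of bone marrow and T cells. For allogeneic recipients this was early in graft-versus-host disease, in which donor T cells attack recipient tissue. Allogeneic recipients (n = 4) were given cells of LP/J mice, and syngeneic recipients (n = 4) cells of C57BL/6 mice. All recipients were female C57BL/6 mice conditioned for 5 days with busulfan and cyclophosphamide, so both groups carry the effect of these drugs and no unconditioned mouse is among the samples. Each of the 8 Affymetrix Mouse Gene 2.0 arrays held 1 sample of cells that carried CD31 and lacked CD45 and CD11b.

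Conjugation enzymes make drugs, steroids, bile acids and products of lipid oxidation more soluble, so that cells can export them. Sulfotransferases take sulfate from the donor PAPS, glucuronosyltransferases take glucuronic acid from UDP-glucuronate, and glutathione transferases join reactive compounds to the tripeptide glutathione. Busulfan itself is cleared largely through conjugation with glutathione. The families are known from liver and from the lining of the gut, where they meet compounds from food and bacteria.

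The labelled cell type was checked first. Pecam1, which encodes CD31, and Cdh5, a cadherin of endothelial junctions, were far above the median gene signal of 5.33 (log2). Pecam1 averaged 10.1 on allogeneic and 10.6 on syngeneic arrays, and Cdh5 averaged 9.69 and 10.3. Epithelial genes were abundant on every array too. Epcam, an epithelial adhesion molecule, averaged 9.49 ± 0.02 on allogeneic and 9.23 ± 0.21 on syngeneic arrays (SD, n = 4 each), and Car1, a colonocyte carbonic anhydrase, 13.2 and 12.8. The mean of a list of 20 colon epithelial genes lay between 10.25 and 10.47 on allogeneic arrays. On syngeneic arrays it lay between 9.66 and 10.26, so the groups overlapped slightly. All 20 genes of that list had a positive log2 change. The mean of 20 endothelial genes lay between 7.65 and 8.36 on allogeneic arrays and between 7.96 and 9.87 on syngeneic arrays, and all 20 had a negative change. Syngeneic arrays 3 and 4 stood apart, with the highest endothelial means (8.99 and 9.87) and the lowest epithelial means (9.93 and 9.66). The values below therefore belong to the sorted sample and cannot be assigned to endothelial cells, and more RNA per cell cannot be told apart from more cells of a type. The means of the leukocyte list overlapped, at 5.24 to 5.82 on allogeneic and 5.26 to 5.70 on syngeneic arrays.

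Sult1a1 and Sult1c2 were the members that passed the test, so their promoters are shown. The 250 bases before the transcript start are given 5′ to 3′ from RefSeq (GRCm38.p6), Sult1a1 at chr7:126676419-126676668 and Sult1c2 at chr17:53845959-53846208, both on the minus strand.
Sult1a1: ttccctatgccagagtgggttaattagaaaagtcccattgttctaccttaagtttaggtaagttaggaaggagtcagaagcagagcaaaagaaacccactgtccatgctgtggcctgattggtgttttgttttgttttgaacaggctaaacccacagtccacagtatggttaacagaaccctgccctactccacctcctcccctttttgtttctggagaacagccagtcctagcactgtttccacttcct
Sult1c2: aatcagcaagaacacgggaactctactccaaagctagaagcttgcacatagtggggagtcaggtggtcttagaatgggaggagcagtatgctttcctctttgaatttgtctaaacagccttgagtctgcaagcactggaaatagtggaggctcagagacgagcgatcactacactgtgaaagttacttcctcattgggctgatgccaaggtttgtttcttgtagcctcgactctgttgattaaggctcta
Neither stretch held any of 5 motifs searched on both strands, so no letters are in capitals. The motifs were the antioxidant response element TGACNNNGC bound by NRF2, the xenobiotic response element TNGCGTG of the aryl hydrocarbon receptor, the HNF1 motif, CAAAGTCCA for HNF4 and TTTATNG for CDX factors.

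RefSeq windows were at hand for 45 of the 52 genes. The antioxidant response element was in those of Gsta3, Gstm7 and Mgst1, or 6.67% of the 45 genes, against 11.5% of all 27025 genes with a window. The HNF1 motif was in those of Sult1d1, Sult2a3, Sult2a4, Sult2a5 and Sult2a6, 11.1% of the 45 genes against 0.440% of all genes, and the Sult2a genes are close copies of one another. Sult1d1 alone held the xenobiotic response element (2.22% of the 45 genes, against 4.76% of all genes). Gstm6, Sult2a5, Sult2a6 and Ugt2a3 held the CDX motif (8.89%, against 11.3%), and no window held the HNF4 motif (against 0.451%). Stretches of 60 bases around a match follow for the 3 genes with an antioxidant response element and for Sult1d1, with the matched letters in capitals. They lie at chr1:21240438-21240497 (plus strand), chr3:107931710-107931769 (minus), chr6:138140445-138140504 (plus, with the element on the other strand) and chr5:87569051-87569110 (minus).
Gsta3: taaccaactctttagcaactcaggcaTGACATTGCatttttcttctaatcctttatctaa
Gstm7: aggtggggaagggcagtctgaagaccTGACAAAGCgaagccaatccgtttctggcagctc
Mgst1: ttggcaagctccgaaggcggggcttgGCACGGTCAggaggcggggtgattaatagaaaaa
Sult1d1: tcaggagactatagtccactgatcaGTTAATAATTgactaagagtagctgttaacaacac
The first matches begin 121, 129 and 56 bases before the transcript start and that of Sult1d1 79 bases before it. A match describes the letters of the window and does not show that a factor was bound.

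The comparison asked whether conjugation enzymes differed between allogeneic and syngeneic recipients, family by family. At an adjusted p below 0.05 in limma, a linear model fitted to all 22180 genes, Sult1a1 and Sult1c2 rose and none of the 52 genes fell. Over all genes 0.469% were called, 0.356% higher and 0.113% lower. Of the 52 genes, 41 had a positive log2 change, against 49% of all genes, and their median change was 0.24, against -0.01 over all genes. The groups did not overlap in 20 of the 52 genes, against 8.55% of all genes. In 19 of these all 4 allogeneic values lay above all 4 syngeneic values (5.18% of all genes), and in 1, Gsto2, below (3.36% of all genes). At an unadjusted p below 0.05 there were 24 higher and 1 lower members, where 7.81% and 5.43% of all genes were.

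**Figure D1:**
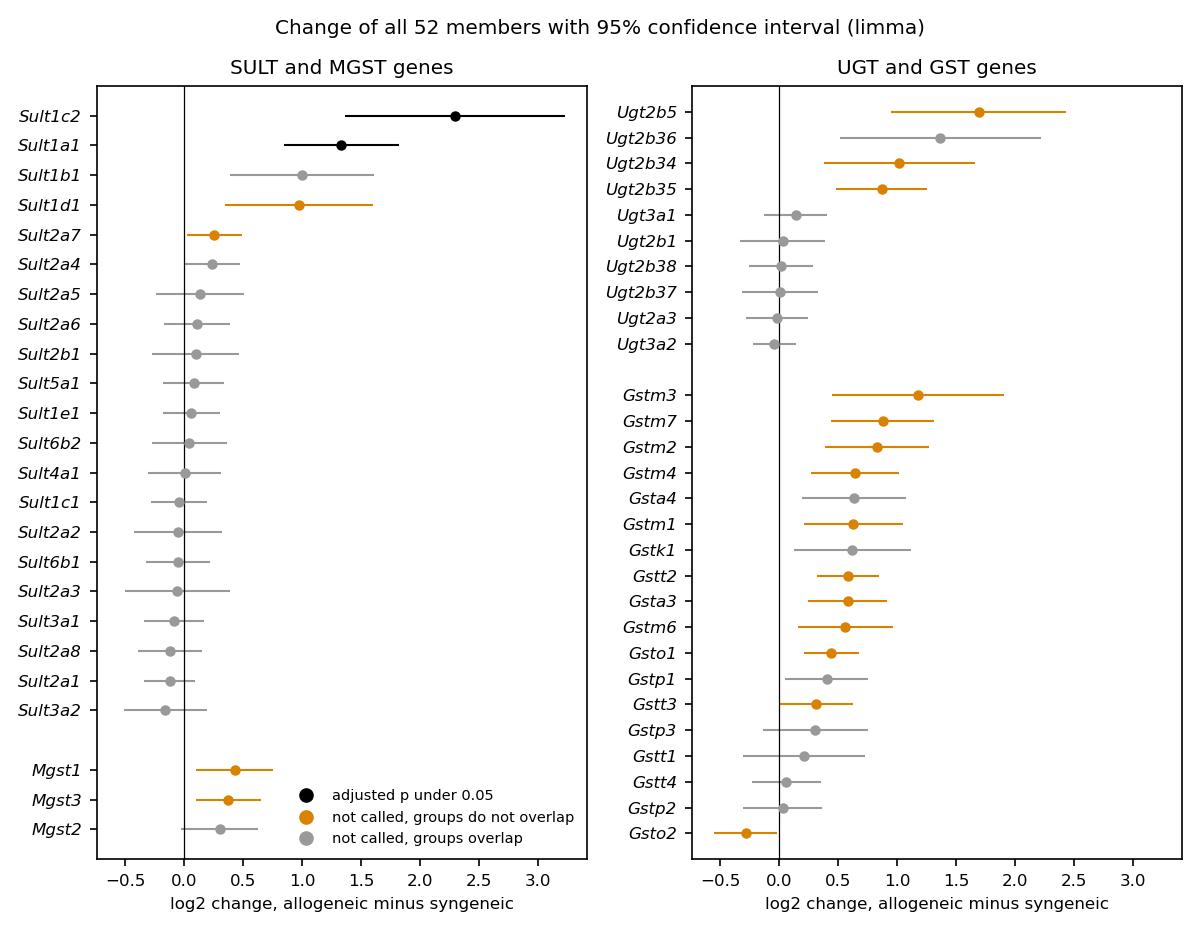
Log2 change (allogeneic minus syngeneic, x axis) of each of the 52 genes with its 95% confidence interval from limma, SULT and MGST genes on the left and UGT and GST genes on the right. Sult1c2 and Sult1a1 (black) passed the threshold, 18 further genes (orange) had groups that did not overlap, and the SULT genes outside the SULT1 family lay between -0.16 and 0.25.

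Both sulfotransferase genes that passed belong to the SULT1 family, whose enzymes act on phenols, catecholamines, thyroid hormone and oestrogen. The other 19 sulfotransferase genes did not pass. The 6 SULT1 genes had a median log2 change of 0.99, and the 15 genes of SULT2 to SULT6 one of 0.00 with a range from -0.16 to 0.25, many of them with low signals, and the difference between these groups of genes was not tested. Sult1a1, the broad phenol sulfotransferase, had log2 signals of 8.71, 9.15, 8.30 and 9.18 on allogeneic arrays 1 to 4 and 7.65, 7.84, 7.16 and 7.36 on syngeneic arrays 1 to 4. Every allogeneic value lay above every syngeneic one. The means were 8.84 ± 0.42 and 7.50 ± 0.30 (SD, n = 4 each), a 2.52-fold rise with a 95% interval of 1.80 to 3.52 (log2 change 1.33 ± 0.22 SE, limma adjusted p = 0.0340). Sult1c2 encodes another cytosolic enzyme of this family, which acts on phenolic drugs and carcinogens. Its log2 signals were 7.72, 7.89, 6.69 and 8.22 on allogeneic arrays and 6.02, 6.03, 5.01 and 4.27 on syngeneic arrays. The groups did not overlap, and syngeneic arrays 3 and 4 were the lowest. The log2 change was 2.30 ± 0.42 (SE, limma adjusted p = 0.0493), with a 95% interval of the fold from 2.58 to 9.38.

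Neither call held in every fit that left out 1 array. Each was lost on leaving out allogeneic array 1, 2 or 4, or syngeneic array 1 or 3 (limma adjusted p up to 0.120 for Sult1a1 and 0.158 for Sult1c2), and held without any of the other 3. Over the 8 such fits the log2 change of Sult1a1 lay between 1.22 and 1.51 and that of Sult1c2 between 1.94 and 2.61. Calls over all genes varied in these fits too, with 4 to 145 genes called higher, against 79 with all arrays. Without both syngeneic arrays 3 and 4 the changes were 1.09 and 1.61 (limma adjusted p = 0.131 and 0.134). With the epithelial list mean as a covariate they were 1.03 and 1.21 (limma adjusted p = 0.402 and 0.441), and with the endothelial one 1.14 and 1.62 (limma adjusted p = 0.103 for both).

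Sult1b1, whose product sulfates thyroid hormone and phenols, and Sult1d1, which in mice acts on catecholamines, did not pass. Sult1b1 had log2 signals of 6.68, 5.86, 6.46 and 7.23 on allogeneic arrays and 5.85, 5.88, 5.23 and 5.28 on syngeneic arrays. Allogeneic array 2 lay within the syngeneic range. Sult1d1 had 8.51, 8.45, 8.38 and 8.87 on allogeneic arrays and 7.80, 8.35, 7.39 and 6.78 on syngeneic arrays, without overlap, although syngeneic array 2 came close to the lowest allogeneic value. Their log2 changes were 1.00 ± 0.28 and 0.97 ± 0.28 (SE, limma adjusted p = 0.145 and 0.163). The value of Sult1d1 was 0.16 with the epithelial covariate and 0.48 without syngeneic arrays 3 and 4.

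The remaining SULT1 genes, Sult1c1 (log2 change -0.04, 95% interval -0.28 to 0.19) and the oestrogen sulfotransferase gene Sult1e1 (0.06, interval -0.18 to 0.30), did not pass. Sult1c1 is the neighbour of Sult1c2 among the protein-coding genes of chromosome 17. The SULT2 genes encode sulfotransferases of hydroxysteroids and bile acids (the Sult2a genes) and of cholesterol and related sterols (Sult2b1). None of these 9 was called. Sult2b1 averaged 6.34 ± 0.27 on allogeneic and 6.25 ± 0.19 on syngeneic arrays, with an interval of the log2 change from -0.28 to 0.47. The means of 5 SULT2 genes did not exceed 3.18, the highest value of 3 Y-linked genes in these female mice. Among these was Sult2a7 (2.74 ± 0.11 on allogeneic and 2.49 ± 0.16 on syngeneic arrays, SD, n = 4 each), whose groups did not overlap and which did not pass (limma adjusted p = 0.338). Sequences of the Sult2a genes are so alike that signal may be shared between them. Both SULT3 genes, Sult4a1, Sult5a1 and both SULT6 genes did not pass, with changes between -0.16 and 0.08.

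**Figure D2:**
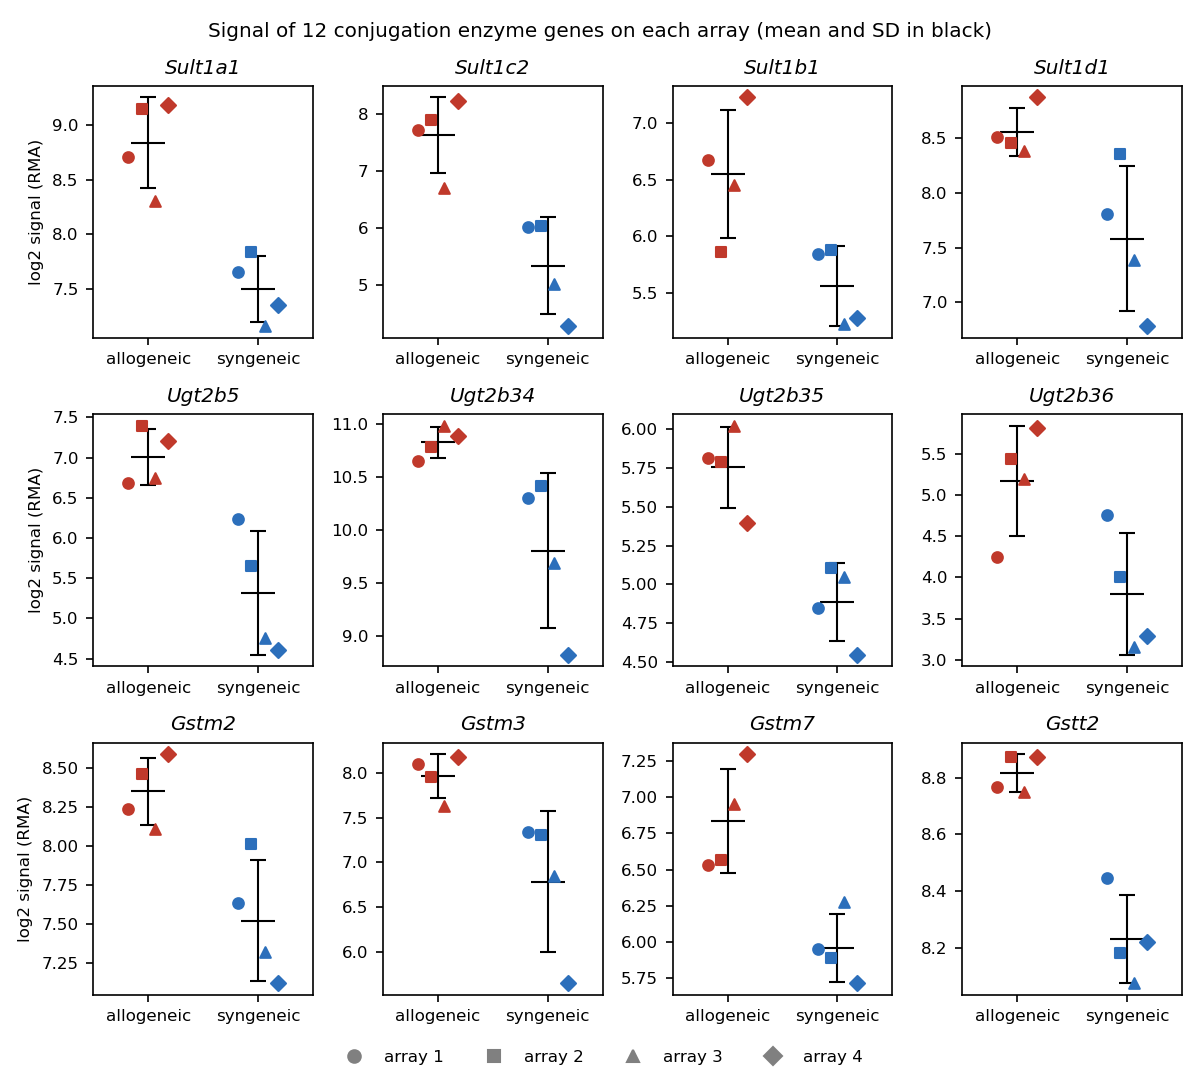
Log2 RMA signal (y axis) of 12 genes on each of the 4 allogeneic arrays (red, left) and 4 syngeneic arrays (blue, right), with the marker shape for the array number and mean and SD in black. Sult1a1 separates the groups fully, while Sult1b1 and Ugt2b36 overlap, and syngeneic arrays 3 and 4 are often the lowest.

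The glucuronosyltransferases measured were 8 UGT2 and 2 UGT3 genes. UGT2 enzymes glucuronidate steroids, bile acids and xenobiotics. None passed, while 4 of them, Ugt2b5, Ugt2b34, Ugt2b35 and Ugt2b36, had log2 changes of 0.87 or more and the other 4 lay between -0.02 and 0.03. Ugt2b5 had log2 signals of 6.68, 7.39, 6.75 and 7.21 on allogeneic arrays and 6.23, 5.65, 4.76 and 4.61 on syngeneic arrays, without overlap. Its means were 7.01 ± 0.35 and 5.31 ± 0.77 (SD, n = 4 each), and its log2 change of 1.69 ± 0.34 missed the threshold (SE, limma adjusted p = 0.0601). Ugt2b35 also missed it (0.87 ± 0.18 SE, limma adjusted p = 0.0616). That gene had 5.82, 5.79, 6.02 and 5.40 on allogeneic arrays and 4.85, 5.11, 5.05 and 4.55 on syngeneic arrays, without overlap, and syngeneic array 4 was the lowest.

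Ugt2b34 and Ugt2b36 differed in how the arrays were placed. Ugt2b34 had log2 signals of 10.65, 10.79, 10.98 and 10.89 on allogeneic arrays and 10.30, 10.41, 9.69 and 8.82 on syngeneic arrays. Syngeneic arrays 1 and 2 thus came closer to the allogeneic arrays, and arrays 3 and 4 were far lower. The log2 change of 1.02 ± 0.29 (SE, limma adjusted p = 0.153) was 0.20 with the epithelial covariate and 0.47 without syngeneic arrays 3 and 4. Ugt2b36 overlapped, with 4.24, 5.43, 5.19 and 5.81 on allogeneic and 4.75, 4.01, 3.15 and 3.29 on syngeneic arrays (log2 change 1.37 ± 0.39 SE, limma adjusted p = 0.155). For Ugt2b35 the value was 0.73 with the epithelial covariate and 0.78 without both arrays. The UGT2B proteins are close relatives, and the probe sets of these neighbours may share signal.

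Ugt2b1, Ugt2b37, Ugt2b38 and Ugt2a3 had 95% intervals of the log2 change that all lay between -0.33 and 0.39. The UGT3 genes, whose human counterparts use other sugars than glucuronic acid, had changes of 0.14 (Ugt3a1) and -0.04 (Ugt3a2), with mean signals of 2.72 and 2.33 on allogeneic and 2.58 and 2.37 on syngeneic arrays, below the highest Y-linked value. In all, 14 of the 52 genes had a mean at or below that value, 9 SULT and 5 UGT genes. Their changes lay between -0.16 and 0.25, and a difference may not be detectable at so low a signal.

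In the RefSeq order of protein-coding genes on chromosome 5, 8 UGT2 genes and Sult1b1, Sult1d1 and Sult1e1 are neighbours, with Ugt2a1 and Ugt2a2 between Ugt2b38 and Sult1b1. The log2 changes along this order were 1.02 for Ugt2b34, 0.03 for Ugt2b1, 0.87 for Ugt2b35, 1.37 for Ugt2b36 and 1.69 for Ugt2b5. The next 3 genes, Ugt2b37, Ugt2a3 and Ugt2b38, lay at 0.01, -0.02 and 0.02, and the SULT1 genes at 1.00, 0.97 and 0.06. The 6 genes with changes of 0.87 or more thus stood beside 5 genes near 0. The 5 had low signals, with means over the 8 arrays between 2.60 and 3.23.

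**Figure D3:**
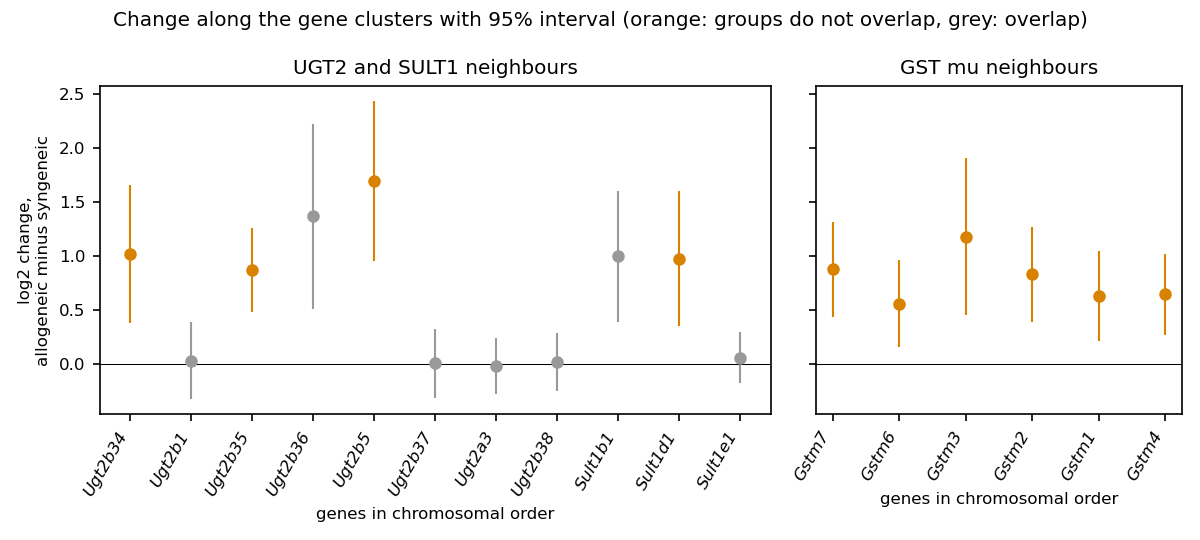
Log2 change (allogeneic minus syngeneic, y axis) with 95% interval for neighbouring genes in chromosomal order, UGT2 and SULT1 genes on the left and GST mu genes on the right, orange where the groups did not overlap and grey where they did. On the left, 6 genes at 0.87 or more stand among 5 genes near 0, and on the right all 6 genes lie between 0.56 and 1.18.

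None of the 18 GST genes passed, while 17 had a positive log2 change and the median was 0.57. The 4 allogeneic arrays lay above all syngeneic arrays in 10 genes, against 5.18% of all genes. Of the 18, 13 were higher and 1 lower at an unadjusted p below 0.05, against 7.81% and 5.43% of all genes. The mu class, which conjugates epoxides and other electrophiles, accounted for 6 of the 10. Its genes Gstm1, Gstm2, Gstm3, Gstm4, Gstm6 and Gstm7 form 1 run on chromosome 3, and in all of them the groups did not overlap. The median change of these 6 genes was 0.74.

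Gstm7 had the smallest p of the mu class. Its log2 signals were 6.53, 6.56, 6.95 and 7.29 on allogeneic arrays and 5.95, 5.89, 6.27 and 5.72 on syngeneic arrays. Here syngeneic array 3 was the highest of its group (log2 change 0.88 ± 0.20 SE, limma adjusted p = 0.0925). Gstm2 had 8.24, 8.47, 8.11 and 8.59 on allogeneic and 7.63, 8.01, 7.32 and 7.12 on syngeneic arrays (0.83 ± 0.20 SE, limma adjusted p = 0.104). Gstm3 had the largest change of all GST genes, 1.18 ± 0.33 (SE, limma adjusted p = 0.149), with 8.10, 7.95, 7.62 and 8.18 on allogeneic and 7.34, 7.30, 6.85 and 5.65 on syngeneic arrays. Syngeneic array 4 lay far below the other 3. Gstm4, Gstm1 and Gstm6 had changes of 0.64, 0.63 and 0.56 (limma adjusted p = 0.132, 0.178 and 0.215).

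With the epithelial covariate the change was 0.72 for Gstm7, 0.65 for Gstm6, 0.46 for Gstm4, 0.38 for Gstm2, 0.26 for Gstm3 and 0.22 for Gstm1. Without syngeneic arrays 3 and 4 these values were 0.91, 0.63, 0.62, 0.53, 0.64 and 0.30 in the same order. No gene passed in either setting. Mu class transcripts are similar in sequence, and their probe sets may share signal.

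The theta class acts on small halogenated compounds, among other substrates. Gstt2 missed the threshold with the smallest p of all GST genes. It had log2 signals of 8.77, 8.87, 8.75 and 8.87 on allogeneic arrays and 8.45, 8.18, 8.08 and 8.22 on syngeneic arrays. The spread was small in both groups, 8.82 ± 0.07 and 8.23 ± 0.16 (SD, n = 4 each), and the change was 0.58 ± 0.12 (SE, limma adjusted p = 0.0620). Its value moved little, to 0.53 beside the epithelial mean, 0.55 beside the endothelial mean and 0.50 when syngeneic arrays 3 and 4 were dropped, where it did not pass (limma adjusted p = 0.467, 0.165 and 0.176). Gstt3 had a change of 0.31 (limma adjusted p = 0.374) without overlap. Gstt1 (0.21, 95% interval -0.30 to 0.73) and Gstt4 (0.06, interval -0.23 to 0.35) overlapped. The 4 theta genes are neighbours on chromosome 10.

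In the alpha class Gsta3, which in mice detoxifies aflatoxin epoxide, had 6.85, 6.82, 7.06 and 7.01 on allogeneic and 6.64, 6.45, 6.16 and 6.17 on syngeneic arrays. The groups did not overlap (0.58 ± 0.15 SE, limma adjusted p = 0.127). Gsta4, which conjugates the lipid peroxidation product 4-hydroxynonenal, had a change of 0.64 ± 0.20 (SE, limma adjusted p = 0.204) and overlapped, since syngeneic array 4 (9.41) exceeded allogeneic array 2 (9.34). Gstk1, a transferase of mitochondria and peroxisomes, had a change of 0.62 (limma adjusted p = 0.266), which was 0.11 with the epithelial covariate.

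The omega class genes, 2 neighbours on chromosome 19, had changes of opposite sign. Gsto1, whose product reduces dehydroascorbate and methylated arsenic, had log2 signals of 10.10, 10.10, 10.13 and 10.30 on allogeneic and 9.70, 9.92, 9.55 and 9.69 on syngeneic arrays. Gsto2 had 3.98, 4.16, 4.05 and 3.79 on allogeneic and 4.36, 4.39, 4.17 and 4.21 on syngeneic arrays. Neither gene overlapped between the groups and neither passed, with changes of 0.44 ± 0.11 and -0.29 ± 0.12 (SE, limma adjusted p = 0.103 and 0.346). Gsto2 was the 1 GST gene with a negative change, and its lowest syngeneic value lay just above the highest allogeneic one.

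None of the 3 pi class genes, neighbours on chromosome 19, passed, and all 3 overlapped between the groups. Gstp1, whose human counterpart is raised in many tumours, averaged 7.47 ± 0.17 on allogeneic and 7.06 ± 0.25 on syngeneic arrays (SD, n = 4 each, log2 change 0.40, limma adjusted p = 0.310). Gstp3 had a change of 0.31, which was -0.02 with the epithelial covariate and -0.04 without syngeneic arrays 3 and 4. Gstp2 averaged 9.52 and 9.49 (change 0.03, 95% interval -0.31 to 0.37). Gstp1 and Gstp2 are so alike that a further probe set of the array is assigned to both, and their separate values are uncertain.

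The 3 membrane-bound glutathione transferases all had positive changes and none passed. Mgst1, which protects membranes from lipid peroxides, had 8.89, 8.86, 9.28 and 8.94 on allogeneic and 8.75, 8.71, 8.28 and 8.52 on syngeneic arrays (0.43 ± 0.15 SE, limma adjusted p = 0.241). Mgst3 had a change of 0.37 ± 0.12 (SE, limma adjusted p = 0.223). Neither overlapped between the groups. Mgst2, which can make leukotriene C4, overlapped (0.30 ± 0.15 SE, limma adjusted p = 0.431), and its change was -0.06 with the epithelial covariate.

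The lowest array of a gene was syngeneic array 3 or 4 in 15 of 18 GST genes, 3 of 3 MGST genes, 7 of 10 UGT genes and 7 of 21 SULT genes. The median deviation of the GST genes from their own means was 0.23, 0.13, 0.21 and 0.36 on allogeneic arrays 1 to 4 and -0.08, -0.05, -0.42 and -0.37 on syngeneic arrays 1 to 4. All 4 allogeneic arrays were thus above all syngeneic arrays, and syngeneic arrays 1 and 2 lay between the allogeneic arrays and syngeneic arrays 3 and 4. The MGST genes gave the same order of groups (0.03 to 0.33 on allogeneic and -0.29 to -0.03 on syngeneic arrays), as did the UGT genes (0.04 to 0.19 and -0.29 to 0.01). The SULT genes, most of them with low signal, overlapped (-0.05 to 0.14 and -0.07 to -0.00). The epithelial list had its highest mean on allogeneic array 4 and its lowest on syngeneic arrays 3 and 4. Its groups overlapped, since allogeneic array 2 (10.25) lay below syngeneic array 2 (10.26).

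**Figure D4:**
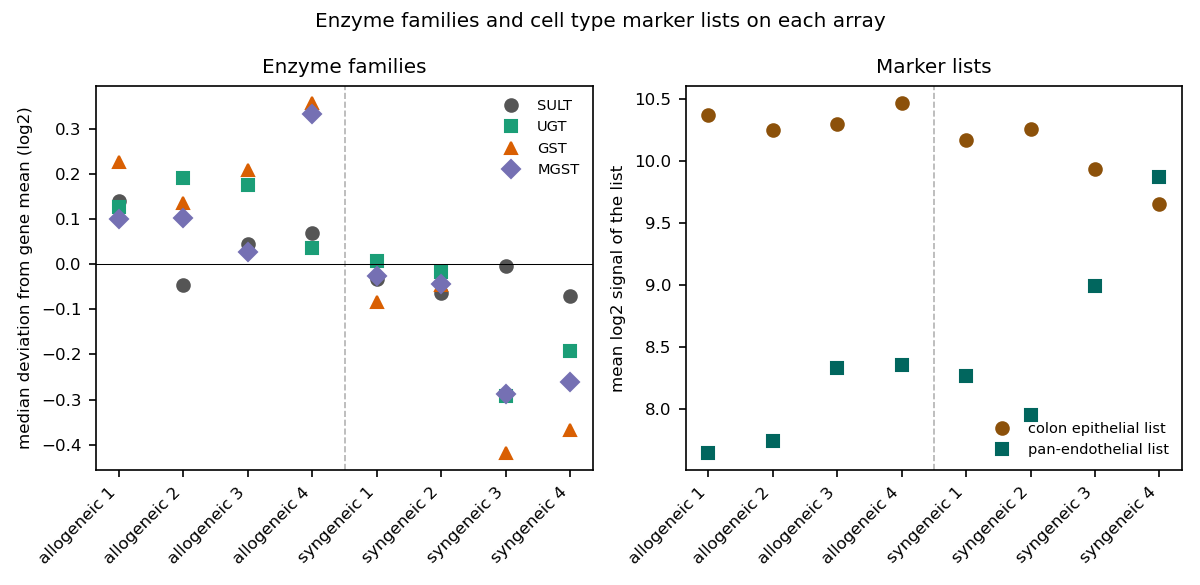
Left, the median over each family of the deviation of a gene from its own mean (log2, y axis) on allogeneic arrays 1 to 4 and syngeneic arrays 1 to 4 (x axis). Right, the mean log2 signal of the colon epithelial and pan-endothelial lists on the same arrays: the GST median was highest on allogeneic array 4 (0.36) and lowest on syngeneic array 3 (-0.42), while the endothelial mean was highest on syngeneic array 4 (9.87).

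In the fits that took the marker lists into account or dropped arrays, the SULT1, UGT2, GST and MGST medians were lower. Some other values were higher. With the epithelial list mean as a covariate, the median log2 change of the 18 GST genes was 0.30 in place of 0.57, that of the SULT1 genes 0.30 in place of 0.99 and that of the UGT2 genes 0.20 in place of 0.45. With the endothelial covariate the 3 medians were 0.45, 0.70 and 0.33, and without syngeneic arrays 3 and 4 they were 0.37, 0.58 and 0.31. The median of all 10 UGT genes, 0.08 without a covariate, was 0.15, 0.11 and 0.13 in these 3 fits. Some single genes had larger changes with both covariates, among them Gstt1 (0.29 and 0.46, in place of 0.21), Gsta4 (0.65 and 0.75, in place of 0.64) and Gstp1 (0.49 and 0.44, in place of 0.40). In these 3 fits 15, 16 and 15 of the 18 GST genes had a positive change, and none of the 52 genes passed. Over all 22180 genes these fits called 4, 19 and 26 genes higher and 3, 9 and 12 lower. The fit of all arrays without a covariate called 79 higher and 25 lower. Compared with syngeneic arrays 1 and 2 alone, all 4 allogeneic arrays were higher in 12 of 18 GST genes, against 10.7% of all genes. The same held in 4 of 21 SULT, 3 of 10 UGT and 2 of 3 MGST genes.

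**Figure D5:**
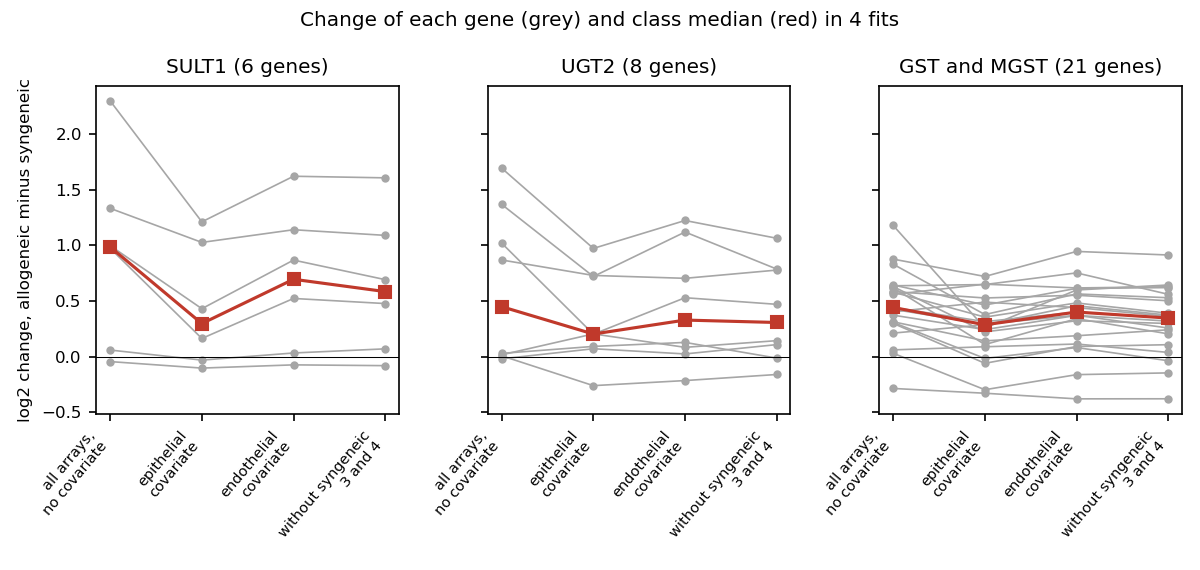
Log2 change (allogeneic minus syngeneic, y axis) of each SULT1, UGT2, and GST or MGST gene (grey) and the class median (red) in 4 fits (x axis): all arrays with no covariate, the epithelial or the endothelial list mean as covariate, and without syngeneic arrays 3 and 4. The SULT1 median was 0.99 in the first fit and 0.30 with the epithelial covariate.

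Genes that supply the conjugating groups were examined next. Over all genes 0.356% were called higher and 0.113% lower. In the list for PAPS and sulfate, 1 of 15 genes rose and none fell, and 14 had a positive change (median 0.44). Papss1, which makes the sulfate donor PAPS, had log2 signals of 8.18, 8.25, 8.06 and 8.43 on allogeneic and 7.41, 7.28, 7.45 and 6.87 on syngeneic arrays, without overlap. It rose 1.97-fold (log2 change 0.98 ± 0.16 SE, limma adjusted p = 0.0339). The call was lost without any 1 allogeneic array and without syngeneic array 1 or 3. It was also lost with the epithelial covariate (0.72, limma adjusted p = 0.402), the endothelial covariate (0.85, limma adjusted p = 0.0990) and without syngeneic arrays 3 and 4 (0.88, limma adjusted p = 0.0668). Mpst, a mitochondrial and cytosolic sulfurtransferase, missed the threshold (0.81 ± 0.15 SE, limma adjusted p = 0.0508). In the list for UDP-glucuronate none of 8 genes passed. Changes were positive in 5 and negative in 3, among them Hk2 (-0.68, limma adjusted p = 0.251). Ugdh, which oxidizes UDP-glucose to UDP-glucuronate, and Ugp2, which makes UDP-glucose, had changes of 0.75 and 0.43 (limma adjusted p = 0.175 and 0.217), and 0.09 and 0.10 with the epithelial covariate.

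Of 17 genes of glutathione supply and turnover 2 rose and none fell, against 0.356% and 0.113% of all genes, with a median change of 0.08. Dpep1, a membrane dipeptidase that splits the cysteinylglycine left by glutathione breakdown, had 10.85, 10.60, 10.73 and 11.09 on allogeneic and 9.55, 9.60, 9.03 and 8.87 on syngeneic arrays. It rose 2.93-fold (log2 change 1.55 ± 0.18 SE, limma adjusted p = 0.00979). It also passed beside the epithelial mean (1.07, limma adjusted p = 0.0304), beside the endothelial mean (1.32, limma adjusted p = 0.0239) and when syngeneic arrays 3 and 4 were dropped (1.24, limma adjusted p = 0.0153). The call was lost without allogeneic array 1 or without syngeneic array 3 (limma adjusted p up to 0.0508). Cth, which releases cysteine from cystathionine, rose 2.51-fold (1.33 ± 0.23 SE, limma adjusted p = 0.0435), with 8.54 ± 0.15 on allogeneic and 7.21 ± 0.53 on syngeneic arrays (SD, n = 4 each). Its call was lost without any 1 allogeneic array, without syngeneic array 1 or 3, and in the 3 other settings, with changes of 0.72, 0.98 and 0.90.

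None of 13 glutathione peroxidases and reductants passed, led by the glutaredoxin genes Glrx (0.53, limma adjusted p = 0.241) and Glrx5 (0.28, limma adjusted p = 0.371). None of 11 genes that remove conjugating groups passed, among them Kyat3, a lyase of cysteine conjugates (0.79, limma adjusted p = 0.104), and the sulfatase gene Arsg (0.52, limma adjusted p = 0.207). Changes were positive in 9 of these genes and negative in 2, among them the sulfatase gene Arsa (-0.60, limma adjusted p = 0.235). Of 12 efflux transporters none passed either. Abcb1a, which encodes a P-glycoprotein, had 9.54 ± 0.37 on allogeneic and 8.54 ± 0.40 on syngeneic arrays (1.00, limma adjusted p = 0.0897). Abcc3, an exporter of glucuronides, had a change of 0.36 (limma adjusted p = 0.445). Changes were positive in 6 transporters and negative in 6, among them Abcb1b at -0.68 (limma adjusted p = 0.456). The median change of the transporters was -0.05.

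Of 19 transcription factors that sense xenobiotics or set their enzymes none passed. Their changes were positive in 9 and negative in 10, with a median of -0.01. Ahr, the aryl hydrocarbon receptor gene, was among the negative ones (-0.64, limma adjusted p = 0.325). Nr1i2, which encodes the pregnane X receptor, an activator of many conjugation genes, had 8.63, 8.35, 8.59 and 8.58 on allogeneic and 7.96, 7.97, 7.49 and 7.74 on syngeneic arrays. The groups did not overlap, and the change of 0.74 ± 0.14 missed the threshold (SE, limma adjusted p = 0.0545). Nr5a2, a nuclear receptor of gut epithelium and liver, had a change of 0.54 (limma adjusted p = 0.227). A further list held other enzymes of drug metabolism, such as methyltransferases, acetyltransferases, carboxylesterases, epoxide hydrolases, quinone and carbonyl reductases and heme oxygenases. Of its 22 genes 1 rose and none fell, against 0.356% and 0.113% of all genes. It was Aadac, an arylacetamide deacetylase and thus a hydrolase (2.22 ± 0.36 SE, limma adjusted p = 0.0339), with 7.35 ± 0.62 on allogeneic and 5.13 ± 0.66 on syngeneic arrays (SD, n = 4 each). Its call was lost without allogeneic array 1, 3 or 4, without syngeneic array 1 or 3, and in the 3 other settings (changes of 1.33, 1.89 and 1.87). Nqo1, a quinone reductase, had 7.51 ± 0.18 on allogeneic and 6.69 ± 0.23 on syngeneic arrays (0.82 ± 0.16 SE, limma adjusted p = 0.0551).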

How the data were processed

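Cells sorted from mouse colon, labelled endothelial, were measured on 8 arrays, 4 per group, with groups taken from sample titles. The labels call the samples biological replicates. Each deposited column holds log2 values, 1 per probe set. The submitters' processing notes name RMA and Affymetrix Expression Console (version 1.4.1). RMA in general corrects background, normalizes quantiles and summarizes probes. Scanner files were not used here, so a low value is a low signal and not absence, and the number of arrays limits the precision. No batch or date was given.

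Of 41345 probe sets, 23521 had exactly 1 symbol. The one with the highest mean per gene was kept, which left 22180 genes, and no member had more than 1. The group effect was fitted with limma 3.58.1 in R 4.3.3 (lmFit, eBayes with intensity trend, no filter), and adjusted by Benjamini-Hochberg over all genes with a threshold of 0.05. The pipeline was tested on simulated data. Members and lists were chosen with earlier results of these data known, so no set test was made. Members named with values passed the threshold, did not overlap between groups or had 1 of the 3 smallest p-values of their class. Ugt2b36 and the genes named without a call were added after their values were seen. Of each other list, genes past the threshold and the 2 with the smallest p were named. Hk2, Arsa, Abcb1b and Ahr were added for their negative changes after the values were seen. All 52 members matched RefSeq by gene ID. Motifs were searched in the 250 bases before each RefSeq transcript start. They were chosen after the values were seen, and the HNF1 motif has the letters shown in capitals for Sult1d1 with any base at 1 position.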

Additional observations from a re-analysis of the deposited data

Results flagged for a closer look

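Among 102 groups of 4 arrays examined for members, other named genes and family medians, 3 held an array far from its other 3 by Dixon's test, and chance alone marks about 1 in 20. Gsto1 was 10.30 on allogeneic array 4, against 10.10 to 10.13 on the other allogeneic arrays. Mgst3 was 10.34 on that array, against 9.85 to 9.92. Aadac was 4.16 on syngeneic array 4, against 5.36 to 5.59 on the other syngeneic arrays.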

How the results depend on the processing

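The count of 2 members called higher was 1 without the intensity trend, with quantile normalization repeated, with the mean of the probe sets of a gene, with every probe set fitted on its own and with the replicate block. It was 4 among genes above the median gene (25 members left) and 4 among genes with a mean of at least 4 (32 left), 6 at an adjusted p below 0.1 and 0 at 0.01. It was 0 with the epithelial or endothelial covariate and without both syngeneic arrays 3 and 4, and between 0 and 4 on leaving out 1 array (4 without syngeneic array 2). It was 2 with robust variance estimates, with centred arrays and with array weights, which called Sult1a1 and Ugt2b35. The count called lower was 0 in every setting run (1 member at an unadjusted p below 0.05). Over all genes, leaving out 1 array gave 4 to 145 higher and 4 to 35 lower calls. Among genes above the median gene, 138 of 11090 were called higher and 55 lower. With a mean of at least 4 these counts were 131 and 50 of 15851, against 79 and 25 of 22180 in the main fit. With the epithelial covariate, the endothelial covariate and without both arrays, 4, 19 and 26 of all genes were called higher and 3, 9 and 12 lower. The median change of all members, 0.24, was 0.62 and 0.58 under the 2 filters, which leave out low-signal genes, and 0.15, 0.15 and 0.17 with the 2 covariates and without both arrays. The SULT median of 0.06 was 1.00 and 0.53 under the filters, with 5 and 8 genes left. The UGT median of 0.08 was 1.36 and 1.19. The first filter left Ugt2b5 and Ugt2b34 of the UGT genes, and the second also Ugt2b35 and Ugt2b36. Both filters use the mean over all 8 arrays, so a gene can be kept through its allogeneic values. Ugt2b5, for example, averaged 7.01 on allogeneic and 5.31 on syngeneic arrays, where the median gene lay at 5.33. The filtered medians and counts are thus no evidence of a larger difference. The GST median of 0.57 was 0.30 with the epithelial covariate and 0.37 without both arrays. Gstp2 (0.03) changed sign with quantile normalization (-0.018), array weights (-0.042), the epithelial (-0.30) and endothelial (-0.16) covariates, without both arrays (-0.15) and without syngeneic array 4 (-0.13 to 0.12 on leaving out 1 array). Gstp3 did with the epithelial covariate (-0.016) and without both arrays (-0.037), Mgst2 (-0.060) and Abcc3 (-0.12) with the epithelial covariate, Ugt3a2 with the endothelial one (0.0048) and Glrx5 with the mean of its probe sets (-0.045). The cause was not tested.

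Replicate numbers did not pair the samples: deviations of arrays with the same number correlated between -0.10 and 0.10, and 3 of 8 arrays correlated best with their own number. With the replicate block 1 member passed (Sult1a1, limma adjusted p = 0.0275), and Sult1c2, Papss1, Cth and Aadac had limma adjusted p-values of 0.0519, 0.0730, 0.0675 and 0.0675.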
